A study of Mus musculus with 8 samples.

Results

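Genes named as markers of maturing astrocytes were followed in the brains of newborn mice whose mothers drank cadmium (Cd). The 10 members, Aqp4, Gfap, Gja1, Gjb6, Apoe, S100b, Aldoc, Slc1a2, Slc1a3 and Aldh1l1, were chosen by symbol among the 49585 genes of the count table, and all 10 were found and had counts in all 8 libraries. Whole-brain RNA was sequenced from female B × C pups, the first-generation hybrids of a C57BL/6J (B) mother and a CAST/EiJ (C) father, dissected as newborns. In 4 litters the dams received CdCl2 at 50 ppm in their drinking water before and during pregnancy, in another 4 they received 0 ppm, and each pup came from a different litter. Both groups share the hybrid background, sex and age, so the values describe 1 sex of 1 cross, and each library mixes all cells of a brain. In such bulk tissue fewer cells of a type and less RNA per cell cannot be told apart.

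Astrocytes are the glial cells that clear transmitter and potassium from around synapses, line blood vessels with their end feet, and feed neurons. In rodents they arise from radial glia, the neural stem cells of the embryo, late in gestation, and switch on most of their mature genes in the first weeks after birth. Markers therefore differ in timing: Slc1a3 is already made by radial glia, whereas Aqp4, Gjb6 and S100b belong to later stages. At birth the astrocyte program is only partly built, and a level in whole brain depends on the number of astrocytes, on their maturity and on which regions the sample holds.

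Sequence before a RefSeq start is shown for 3 members whose log2 fold changes differed in size, Gfap (0.59), Slc1a3 (0.13) and Aldh1l1 (0.02). The starts used for Gfap and Aldh1l1 lie inside the annotated gene, and the sequence of Slc1a3 alone lies before its gene. RefSeq start-site windows of 300 bases, from 250 before to 50 after the start (build GRCm38.p6), were given for 9 of the 10 members, as 12 windows. Both strands were searched for TTCNNNGAA, the letters bound by STAT factors that drive astrocyte genes, and AGGTCA, a core site of nuclear receptors such as those for retinoic acid. No stretch below overlaps an annotated exon. Capitals mark the match, lower case the flanking bases, and each is written 5′ to 3′ on the gene's own strand.
Gfap, minus strand, chr11:102897240-102897325, inside the Gfap gene body and with AGGTCA on the other strand: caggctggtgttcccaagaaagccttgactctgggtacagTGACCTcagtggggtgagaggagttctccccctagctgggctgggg
Slc1a3, minus strand, chr15:8710855-8710943, before the gene, with TTCNNNGAA: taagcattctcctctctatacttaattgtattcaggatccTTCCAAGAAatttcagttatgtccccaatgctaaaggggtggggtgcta
Aldh1l1, plus strand, chr6:90550575-90550660, at a start inside the Aldh1l1 gene body and with AGGTCA on the other strand: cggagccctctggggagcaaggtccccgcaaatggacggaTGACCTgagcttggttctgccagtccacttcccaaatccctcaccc

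TTCNNNGAA was found in 3 of the 12 member windows, those of Aldoc, Gfap and Slc1a3, against 8.30% of all 32851 RefSeq windows. AGGTCA was found in 3, those of Aldh1l1, Gfap and Slc1a2, against 16.3%. The TATA box TATAAA was found in 2 (Apoe and Slc1a3) against 13.6%. The core of the metal response element, TGCGCNC or TGCACNC, the letters read by the metal-sensing factor MTF1, was found in 1 (Aldh1l1) against 25.7% of all windows. Neither the E-box CACGTG (7.15% of all windows) nor the full NFI site (0.0365%) was found in a member window. A match is a description of the letters and not a bound site.

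Each library held 22916434 to 30708087 counted reads, and 23113 genes entered the quasi-likelihood test of edgeR. Levels are given as counts per 1000000 reads (CPM) scaled between libraries with TMM factors. The members rested on 55 to 211 reads per library for S100b, the lowest, and on 9107 to 14051 for Apoe, the highest. After Benjamini-Hochberg adjustment 4 genes, 0.0173% of those tested, passed 0.05, and 0 of the 10 members were among them, as with DESeq2 or limma-voom in place of edgeR. Without adjustment, p was under 0.05 for 866 genes, 2.31% of those tested being higher and 1.44% lower in the 50 ppm group. By that count 7 of the 10 members were higher and 0 lower. All 10 members had a positive log2 fold change, as did 49.0% of all genes tested. The median of the members was 0.42 on the log2 scale, and that of all genes tested was -0.00. The members were chosen with earlier results of these data known, so these counts and medians are a description and not a test. Differences below are read as unadjusted values that did not pass the adjusted threshold unless an adjusted p is given. Counts of genes at an unadjusted p under 0.05 in any list below are to be set beside these shares of 2.31% and 1.44%.

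**Figure D1:**
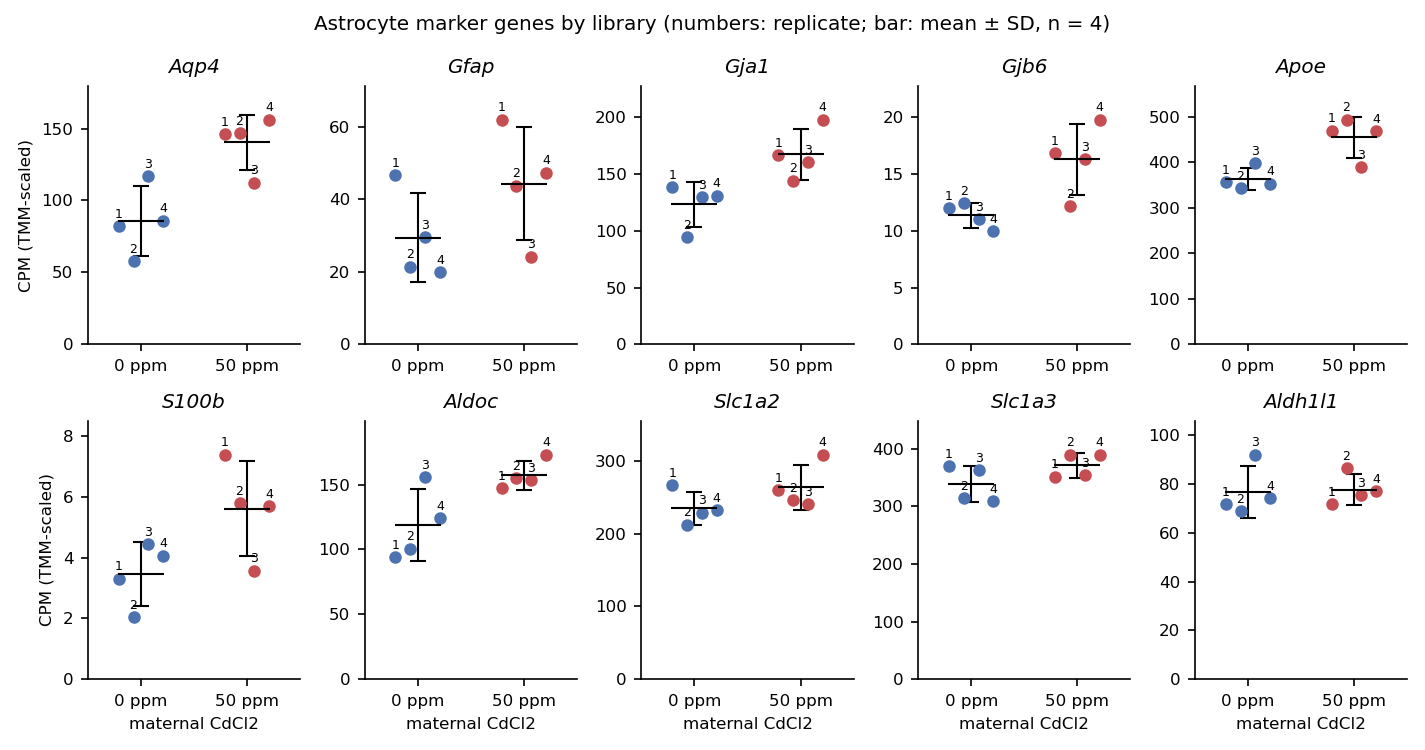
Each panel plots the TMM-scaled CPM of 1 marker gene (linear axis from 0) in the 4 libraries of each dose, with replicate numbers beside the points and a bar for the mean ± SD (n = 4). Only for Gja1 do the 4 libraries of the 50 ppm group all sit above those of the 0 ppm group, and in the Aldh1l1 panel the 50 ppm points lie inside the 0 ppm range.

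Aqp4 encodes the water channel of astrocyte end feet and showed the largest log2 fold change of the 10 members. It lies on chromosome 18 (GRCm38, positions 15389496 to 15410982, minus strand). Its level was 82.2, 57.8, 117 and 85.9 CPM in replicates 1 to 4 of the 0 ppm group. In replicates 1 to 4 of the 50 ppm group it was 146, 147, 112 and 156 CPM. All exposed libraries but replicate 3 stood above every control, and the groups overlapped through replicate 3 of each, the highest control and the lowest exposed library. Means of 85.7 ± 24.2 CPM at 0 ppm and 140.4 ± 19.2 CPM at 50 ppm (SD, n = 4) gave 0.71 as log2 fold change (SE 0.147) with an adjusted p of 0.271 in edgeR (quasi-likelihood test, Benjamini-Hochberg). Its unadjusted p of 1.41e-04 was the 12th smallest of all genes tested. Taken alone, Aqp4 gave a two-sided exact permutation p of 0.0571, where the smallest p that 4 against 4 libraries allow is 0.0286. Without replicate 3 of the 0 ppm group the adjusted p of Aqp4 was 0.00457 at a log2 fold change of 0.90, in a fit that called 20 genes (0.0880% of those tested), and over all 17 alternatives it ranged from 3.62e-04 to 1.00.

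The genes that anchor Aqp4 had smaller log2 fold changes, though the difference from Aqp4 was not tested. Of the 9 genes tested for the complex that holds Aqp4 at the end-foot membrane (Dmd, Dag1 and Dtna among them), 0 had an unadjusted p under 0.05, and their median log2 fold change was 0.06. Dag1 (dystroglycan), the receptor that ties the complex to the basal lamina, was at 241 ± 6.13 CPM in the 0 ppm group and 246 ± 19.2 CPM in the 50 ppm group (SD, n = 4). Hepacam, an adhesion protein of astrocytes, came nearest, with a log2 fold change of 0.24 (unadjusted p = 0.0583 in edgeR). Among the other 8 aquaporins tested, Aqp8 alone had an unadjusted p under 0.05. It was listed at 0 in all 4 control libraries and averaged 0.0529 CPM in the exposed ones, under the level of 3 reads per library, so no fold is given. Aqp1, the water channel of the choroid plexus, was at 17.9 ± 9.99 CPM in the 0 ppm group and 14.8 ± 4.23 CPM in the 50 ppm group.

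Gja1 (connexin 43, chromosome 10, 56377330 to 56402513, plus strand) and Gjb6 (connexin 30, chromosome 14, 57123303 to 57133611, minus strand) form the gap junctions that couple astrocytes into a network. Gja1 was at 138, 94.1, 129 and 131 CPM in replicates 1 to 4 of the 0 ppm group. In replicates 1 to 4 of the 50 ppm group it was at 167, 144, 161 and 198 CPM. It was the 1 member whose groups did not overlap, with all 4 exposed libraries above all 4 controls, as was the case for 1.19% of all genes tested. The controls averaged 123 ± 19.8 CPM and the exposed libraries 167 ± 22.5 CPM (SD, n = 4). On the log2 scale the fold change was 0.44 (SE 0.109), with an adjusted p of 0.426 in edgeR (quasi-likelihood test, Benjamini-Hochberg) and a two-sided exact permutation p of 0.0286, the smallest the design allows. Over the alternatives, the adjusted p of Gja1 ranged from 0.0157 to 1.00.

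Gjb6 appears later in astrocyte maturation than Gja1. Its level was 12.02, 12.5, 11.01 and 9.95 CPM in replicates 1 to 4 of the 0 ppm group and 16.9, 12.2, 16.3 and 19.8 CPM in those of the 50 ppm group. Replicate 2 of the exposed group fell among the controls and the other exposed libraries stood above them. The log2 fold change of Gjb6 was 0.52 (SE 0.135), with an adjusted p of 0.616 in edgeR (quasi-likelihood test, Benjamini-Hochberg) and an exact permutation p of 0.0571.

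Among the 14 other connexins tested, 3 had an unadjusted p under 0.05, all higher in the 50 ppm group, and their median log2 fold change was 0.21. Among them were Gjb2 (connexin 26), a partner of astrocyte and meningeal junctions, at 6.48 ± 1.43 and 9.11 ± 2.20 CPM, and Gjc3, a connexin of oligodendrocytes. Gjc3 was at 1.59 ± 0.698 CPM in the 0 ppm group and 3.00 ± 0.701 CPM in the 50 ppm group. The neuronal connexin Gjd2, at 41.0 ± 5.97 and 43.9 ± 2.21 CPM, differed by less than the spread between libraries.

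Gfap encodes the intermediate filament protein by which astrocytes are most often recognised (chromosome 11, 102887336 to 102900912, minus strand). Its level was 46.7, 21.4, 29.6 and 19.9 CPM in replicates 1 to 4 of the 0 ppm group. In replicates 1 to 4 of the 50 ppm group it was 62.0, 43.8, 24.1 and 47.4 CPM. The groups overlapped widely: replicate 1 was the highest of the controls and stood above 2 of the 4 exposed libraries (replicates 2 and 3), and replicate 3 of the exposed group lay among the controls. Gfap was the most variable member, with a coefficient of variation of 41.8% in the 0 ppm group and 35.2% in the 50 ppm group. Its log2 fold change was 0.59 (SE 0.242), with an unadjusted p of 0.0258 and an adjusted p of 0.999 in edgeR (quasi-likelihood test, Benjamini-Hochberg), and an exact permutation p of 0.171. Single libraries moved the log2 fold change of Gfap to 0.90 (without replicate 1 of the 0 ppm group) and to 0.38 (without replicate 1 of the 50 ppm group). The whole exon length of Gfap lies inside the span of Gm26668, a gene on the other strand, though no exon overlaps.

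The other filament genes of glia lay in both directions. Vim (vimentin), the filament of immature glia, was at 213 ± 22.6 CPM in the 0 ppm group and 222 ± 17.7 CPM in the 50 ppm group. Nes (nestin), the filament of radial glia, was lower in the 50 ppm group, at 108 ± 5.50 against 93.6 ± 8.90 CPM (log2 fold change -0.21, unadjusted p = 0.0140 in edgeR). Plec, a linker of filaments, was higher by 0.19 on the log2 scale (unadjusted p = 0.0375 in edgeR). Over all genes tested, 2.31% were higher at an unadjusted p under 0.05. Of 34 genes of reactive astrocytes other than Gfap, those induced by injury or inflammation, 2 had an unadjusted p under 0.05, both higher. They were Cp (ceruloplasmin), at 16.3 ± 1.11 and 21.4 ± 2.10 CPM, and Serpina3n, a protease inhibitor, at 3.29 ± 0.208 and 4.76 ± 0.949 CPM (SD, n = 4). Lcn2, among the most strongly induced genes of reactive astrocytes, was at 0.583 ± 0.248 CPM in the 0 ppm group and 0.523 ± 0.294 CPM in the 50 ppm group.

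Apoe, the lipid carrier that astrocytes supply to neurons (chromosome 7, 19696109 to 19699188, minus strand), was the most abundant member. Its level was 356, 342, 398 and 353 CPM in replicates 1 to 4 of the 0 ppm group and 469, 493, 389 and 468 CPM in those of the 50 ppm group. As for Aqp4, the overlap came from replicate 3 of each group. The coefficient of variation was 6.72% in the 0 ppm group, the smallest of the members there, so a log2 fold change of 0.33 (SE 0.0772) gave the 31st smallest unadjusted p of all genes tested. The adjusted p was 0.366 in edgeR (quasi-likelihood test, Benjamini-Hochberg), and the exact permutation p was 0.0571. Over the alternatives the adjusted p of Apoe ranged from 0.0439 to 1.00. Of the 16 genes tested for lipid loading, receptors and regulators of Apoe particles, 1 had an unadjusted p under 0.05. That was Lcat, the enzyme that esterifies cholesterol on the particle, at 2.45 ± 0.672 CPM in the 0 ppm group and 3.53 ± 0.394 CPM in the 50 ppm group. The lipid pump Abca1 had a log2 fold change of -0.10 and the receptor Lrp1 one of 0.00, and the median over the list was 0.00.

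S100b, a calcium-binding protein of maturing astrocytes that oligodendrocyte cells also make (chromosome 10, 76253853 to 76261159, plus strand), was the least abundant member. Its level was 3.31, 2.05, 4.44 and 4.07 CPM in replicates 1 to 4 of the 0 ppm group. In replicates 1 to 4 of the 50 ppm group it was 7.40, 5.79, 3.57 and 5.69 CPM. Replicate 3 of the exposed group lay among the controls and the other 3 above all of them. This gave a log2 fold change of 0.69 (SE 0.231), with an unadjusted p of 0.00769 and an adjusted p of 0.999 in edgeR (quasi-likelihood test, Benjamini-Hochberg), and the exact permutation p was 0.0857. Of its exon length, 83.0% lies inside the span of Dip2a, a gene on the other strand, though no exon overlaps. The strand setting of the counting is not known here. Of 11 other members of the S100 family, 3 were higher at an unadjusted p under 0.05, namely S100a1, S100a6 and S100a13, with log2 fold changes of 0.39, 0.44 and 0.46.

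Aldoc, the aldolase of glycolysis that astrocytes and Purkinje cells use (chromosome 11, 78322968 to 78327781, plus strand), was at 94.3, 101, 156 and 124 CPM in replicates 1 to 4 of the 0 ppm group. In those of the 50 ppm group it was at 147, 155, 153 and 173 CPM. The exposed libraries were close to each other, with a coefficient of variation of 7.16% against 23.5% in the controls, and replicate 3 of the controls stood above 3 of the exposed. Aldoc had a log2 fold change of 0.40 (SE 0.117), with an unadjusted p of 0.00296 and an adjusted p of 0.831 in edgeR (quasi-likelihood test, Benjamini-Hochberg), and the exact permutation p was 0.114. Without replicate 3 of the 0 ppm group the log2 fold change of Aldoc was 0.56 and its adjusted p 0.0195. The muscle-type aldolase Aldoa, which most cells make, was at 295 ± 46.4 and 334 ± 8.52 CPM (log2 fold change 0.18, unadjusted p = 0.0546 in edgeR).

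The glutamate transporters Slc1a2 (GLT-1, chromosome 2, 102658659 to 102790784, plus strand) and Slc1a3 (GLAST, chromosome 15, 8634124 to 8710764, minus strand) take up synaptic glutamate. Slc1a2 was at 267, 212, 229 and 232 CPM in replicates 1 to 4 of the 0 ppm group and 260.1, 247, 241 and 309 CPM in those of the 50 ppm group. Replicate 1 of the controls stood above 3 of the exposed libraries. Slc1a3 was at 369.8, 314, 363 and 309 CPM in the control replicates 1 to 4 and at 352, 390.2, 354 and 389.8 CPM in the exposed ones, with the 2 higher controls inside the exposed range. Neither passed 0.05 even without adjustment. Slc1a2 had a log2 fold change of 0.17 (SE 0.0856, unadjusted p = 0.0662 in edgeR), which was 0.084 without replicate 4 of the 50 ppm group, and that of Slc1a3 was 0.13 (SE 0.0742, unadjusted p = 0.0931 in edgeR). The exact permutation p was 0.171 for each. Of the other 5 genes of the family tested, 0 had an unadjusted p under 0.05. Slc1a4, a neutral amino acid carrier, was at 160 ± 9.99 and 165 ± 2.17 CPM, and the neuronal transporter Slc1a1 at 81.1 ± 1.08 and 81.2 ± 3.98 CPM (SD, n = 4).

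Aldh1l1, the folate enzyme that serves as a general astrocyte marker (chromosome 6, 90486427 to 90600203, plus strand), had a log2 fold change near 0. Its level was 71.7, 69.0, 92.2 and 74.2 CPM in replicates 1 to 4 of the 0 ppm group. In those of the 50 ppm group it was 71.8, 86.5, 75.4 and 77.1 CPM. The exposed range lay wholly inside the control range. Aldh1l1 gave a log2 fold change of 0.02 (SE 0.0909, unadjusted p = 0.850 in edgeR, exact permutation p = 0.771), and its sign changed with single libraries. Of its exon length, 11% is overlapped by a gene on the other strand and 2.3% by one on the same strand, so reads there could have been lost to or gained from those genes. None of 12 other folate enzymes passed 0.05 without adjustment, and the mitochondrial relative Aldh1l2 was at 65.6 ± 9.57 and 67.9 ± 5.09 CPM.

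**Figure D2:**
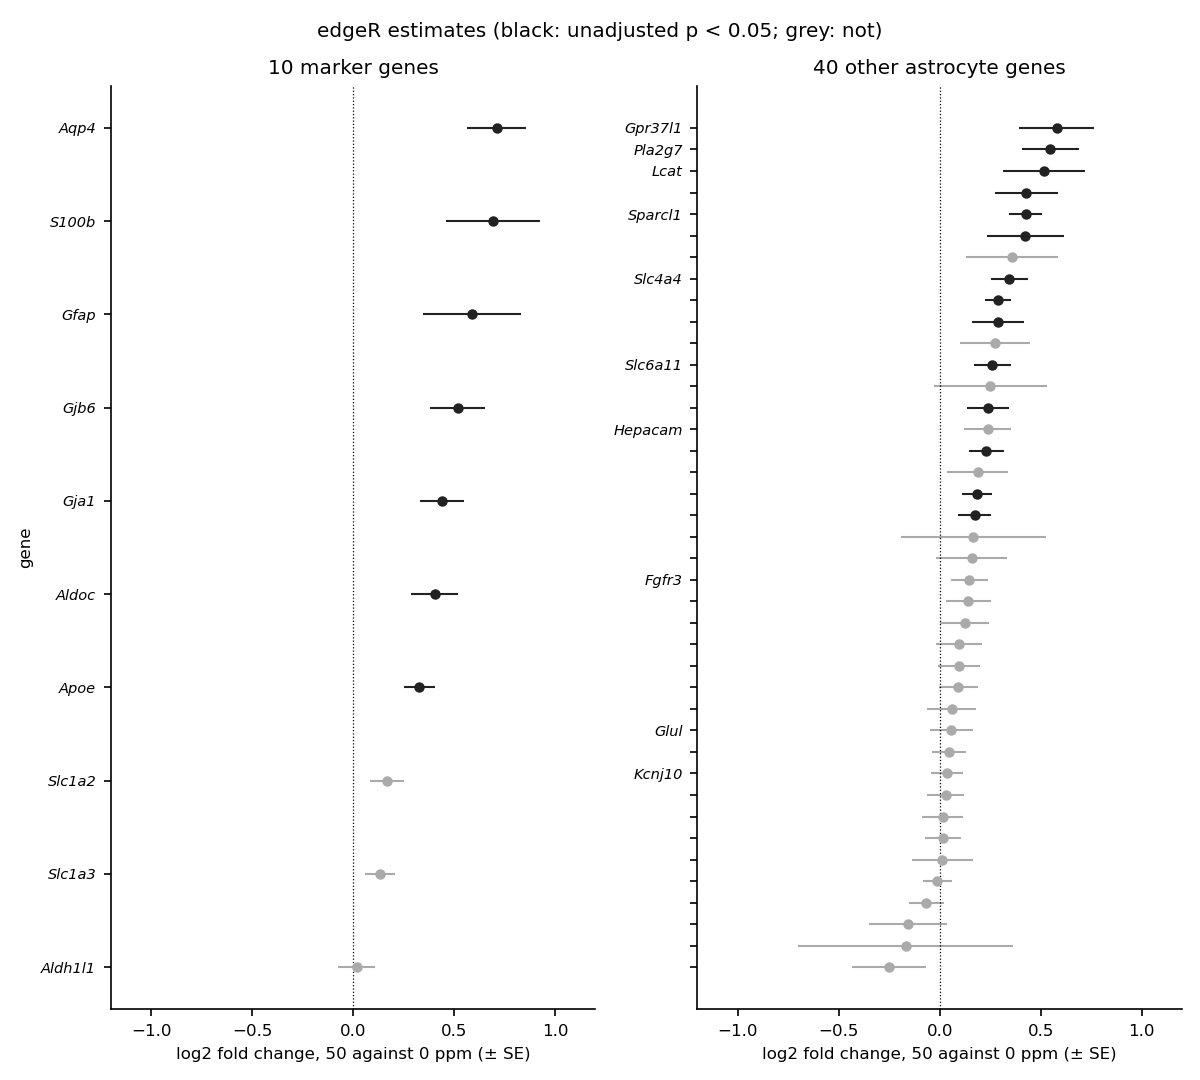
The log2 fold change of the 50 ppm against the 0 ppm group (x axis, point, with its SE as a bar) is shown for the 10 marker genes on the left and 40 other astrocyte genes on the right, black where the unadjusted edgeR p was under 0.05, with names on the right for genes described in the text. Of the marker genes 7 are black and all lie right of 0, and of the other astrocyte genes 14 are black and 35 lie right of 0.

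A wider list of 40 other astrocyte genes was higher in part. Of these 14 had an unadjusted p under 0.05, all higher in the 50 ppm group, none passed the adjusted threshold, and the median log2 fold change was 0.16. Sparcl1 (hevin), a secreted synapse-forming protein of astrocytes, was at 563 ± 70.5 CPM in the 0 ppm group and 756 ± 49.6 CPM in the 50 ppm group. Pla2g7, a secreted phospholipase, was at 37.5 ± 9.90 and 54.9 ± 4.86 CPM. The bicarbonate transporter Slc4a4 was at 121 ± 16.9 and 154 ± 14.5 CPM, and the orphan receptor Gpr37l1 at 5.54 ± 1.30 and 8.30 ± 1.69 CPM. Slc6a11 (GAT-3), a GABA transporter of astrocytes, had a log2 fold change of 0.26 (unadjusted p = 0.0109 in edgeR).

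Other well-known astrocyte genes did not pass 0.05 without adjustment. Glul, glutamine synthetase, was at 318 ± 58.8 and 331 ± 37.2 CPM. Kcnj10, the potassium channel that shares the end foot with Aqp4, was at 45.6 ± 1.87 and 46.8 ± 4.02 CPM. Fgfr3, a growth factor receptor of early astrocytes, had a log2 fold change of 0.15 (SE 0.0926).

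Among 12 transcription factors of the astrocyte lineage tested, 8 had a negative log2 fold change and the median was -0.08. The gliogenic factors Sox9 and Nfia were at 42.5 ± 3.20 and 40.2 ± 2.56 CPM and at 114 ± 9.93 and 113 ± 12.8 CPM. Zbtb20 was lower in the 50 ppm group, at 206 ± 14.8 against 174 ± 32.3 CPM (log2 fold change -0.25, unadjusted p = 0.0260 in edgeR). Hopx, which is also expressed in radial glia, was higher at 9.16 ± 1.68 against 11.2 ± 0.879 CPM. Sox2, a gene of most neural progenitors and glia, was listed at 0 in all 8 libraries, from which no absence of its RNA is read. Its exons lie wholly inside the span of Sox2ot on the same strand, though no exon of another gene overlaps them. Why Sox2 was listed at 0 was not tested. Of 15 radial glia genes tested, Slc1a3 included, 2 were higher (Hopx and the endothelin receptor Ednrb) and 2 lower (Nes and Fgfbp3) at an unadjusted p under 0.05, with a median log2 fold change of 0.04.

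Compared per kilobase of exon, the members covered a wide range of levels. In the 0 ppm group Apoe led with 169 ± 11.4 CPM per kb (SD, n = 4), followed by Slc1a3 at 39.7 ± 3.72 and Aldoc at 36.4 ± 8.54. Next came Slc1a2 at 17.9 ± 1.73, Aldh1l1 at 17.0 ± 2.32, Aqp4 at 13.8 ± 3.89 and Gja1 at 12.01 ± 1.93 CPM per kb. Gfap at 6.97 ± 2.91, Gjb6 at 4.25 ± 0.419 and S100b at 2.34 ± 0.712 CPM per kb were lowest. The ranges of neighbours overlapped from Slc1a3 to Aldoc and all along from Slc1a2 to Gfap, and did not between Apoe and Slc1a3, Aldoc and Slc1a2, Gfap and Gjb6, or Gjb6 and S100b. In the 50 ppm group Apoe was at 213 ± 21.1, Aldoc at 48.2 ± 3.45 and Slc1a3 at 43.5 ± 2.51 CPM per kb, the last a pair whose ranges overlapped. Aqp4, at 22.5 ± 3.08 CPM per kb, stood ahead of Slc1a2 at 20.1 ± 2.36 and Aldh1l1 at 17.2 ± 1.39 CPM per kb, with ranges that overlapped from each to the next.

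**Figure D3:**
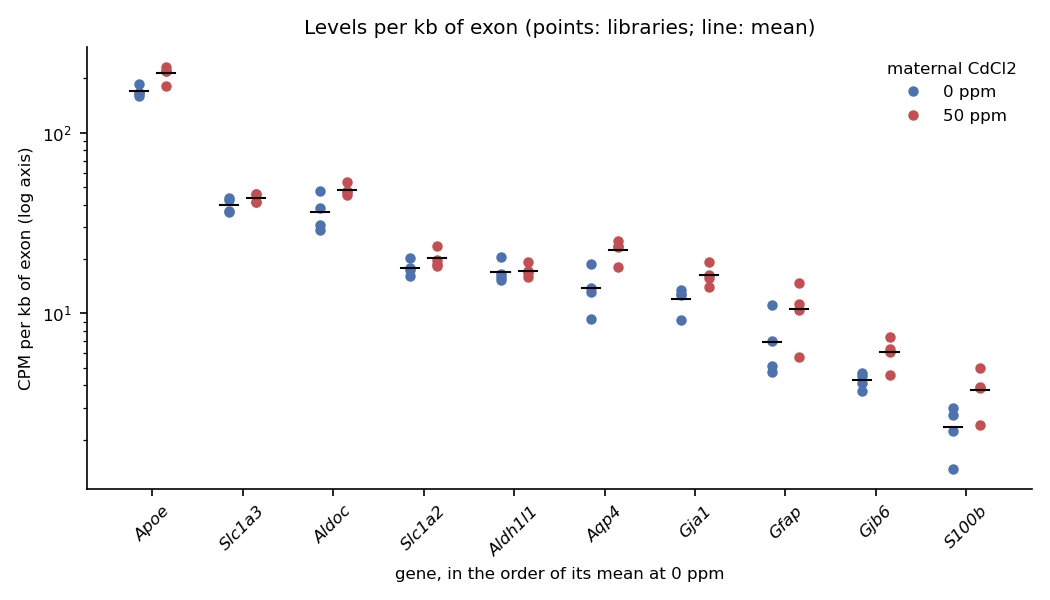
Levels in CPM per kb of exon (log axis) are plotted for each library (points) with the mean (line), for 0 ppm and 50 ppm, genes ordered by their mean in the 0 ppm group. Apoe stands apart at the top of both groups, and S100b is lowest in both.

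The ratio of each member to Aldh1l1 in the same library sets the members against a general astrocyte marker, without making Aldh1l1 a measure of cell number. Aldh1l1 was taken as the denominator after its values were seen, and the ratios were not tested. For Aqp4 the ratio was 0.838 to 1.27 in the 0 ppm group and 1.49 to 2.03 in the 50 ppm group, so that the groups did not overlap. The ratio of Apoe was 4.32 to 4.97 and 5.17 to 6.53, and that of Aldoc 1.32 to 1.69 and 1.79 to 2.25, again with no overlap. Aldh1l1 was itself highest in replicate 3 of the 0 ppm group (92.2 CPM), the highest control for Aqp4, Apoe and Aldoc too. Dividing by it therefore lowered that control relative to the others. The share of all genes whose ratios to Aldh1l1 did not overlap was not computed. For the other 6 members the ratios overlapped, that of Gja1 among them (1.36 to 1.93 and 1.67 to 2.57), although the groups did not overlap in its CPM. Slc1a3 had a mean ratio of 4.45 ± 0.535 in the 0 ppm group and 4.79 ± 0.237 in the 50 ppm group (SD, n = 4).

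**Figure D4:**
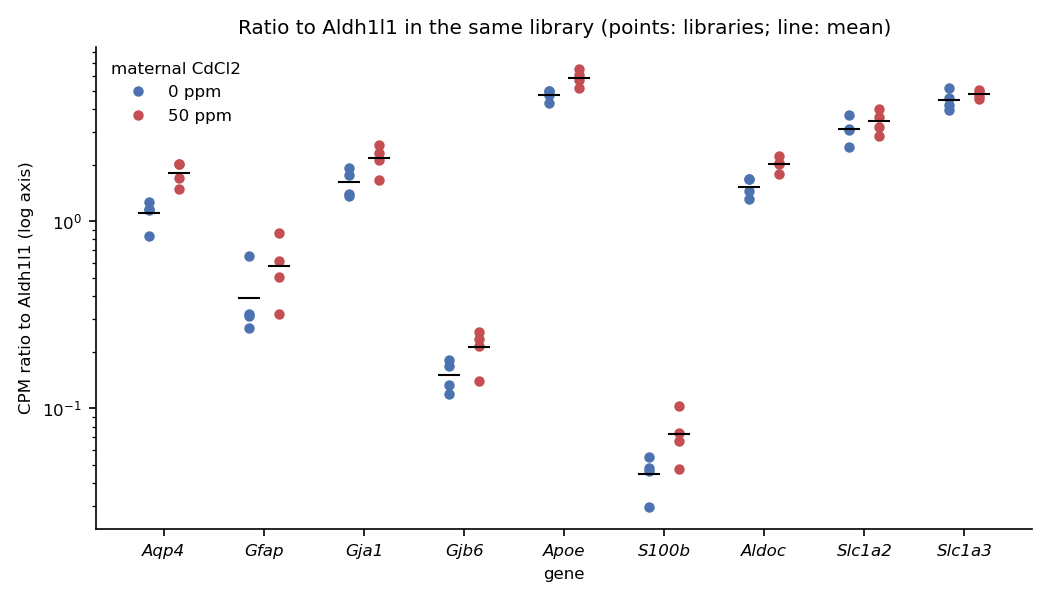
The CPM of 9 marker genes divided by that of Aldh1l1 in the same library is plotted on a log axis, with a point per library and a line at the mean of 4. The 50 ppm points lie above all 0 ppm points for Aqp4, Apoe and Aldoc, whose groups overlapped in CPM before division. Aldh1l1 was taken as the denominator after its values were seen.

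Some libraries stood high or low for several members at once. Replicate 3 was the highest control for 5 members (Aqp4, Apoe, S100b, Aldoc and Aldh1l1) and replicate 1 for 4 (Gfap, Gja1, Slc1a2 and Slc1a3), whereas replicate 2 was the lowest control for 6. Replicate 3 was the lowest exposed library for 5 members (Aqp4, Gfap, Apoe, S100b and Slc1a2), and replicate 4 the highest for 5. The mean log2 CPM over the members was 6.22, 5.88, 6.32 and 6.09 in replicates 1 to 4 of the 0 ppm group and 6.62, 6.52, 6.31 and 6.68 in those of the 50 ppm group. The lowest exposed library thus lay just under the highest control. Over the 8 libraries the correlation of a member with the mean of the other 9 was highest for Aqp4 (Pearson r = 0.95) and lowest for Aldh1l1 (0.31). With each dose centred on its own mean it was 0.88 for Aqp4 and -0.04 for Gjb6. These values describe 8 libraries, and libraries of 1 dose share that dose.

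By the same measure over 14592 genes with a mean of at least 1 CPM, the genes most like the mean profile of the members were Sync (r = 0.98), Decr1 (0.97), Gm16168 (0.97), Sfxn5 (0.96) and Gpr37l1 (0.95). Sync was at 1.35 ± 0.393 CPM in the 0 ppm group and 2.40 ± 0.389 CPM in the 50 ppm group. Sfxn5, a mitochondrial carrier, was at 70.3 ± 8.35 and 87.4 ± 5.15 CPM (SD, n = 4). With each dose centred on its own mean the order was Gpr83 (0.98), Tuba4a (0.98), Mov10 (0.97), A530058N18Rik (0.96) and Cryzl2 (0.96), and no gene was in both sets of 5.

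RNA of regional marker genes also differed between the libraries. Of 18 genes of brainstem and spinal cord tested, Hox genes among them, 15 had an unadjusted p under 0.05, all higher in the 50 ppm group, and the median log2 fold change was 1.42. Their summed level was 26.8 to 111 CPM in the 0 ppm group and 97.8 to 264 CPM in the 50 ppm group, with replicates 1 and 2 of the controls lowest. Hoxa3, Hoxa4, Hoxd4 and Slc18a3 of that list were listed at 0 in all libraries, from which no absence of their RNA is read. Of 18 forebrain genes 9 were lower and 0 higher by the same measure, with summed levels of 1090 to 1593 CPM at 0 ppm and 1122 to 1332 CPM at 50 ppm. The mean log2 CPM of the brainstem and spinal cord list was also entered in the fit as a covariate. This mean was -1.81 to 1.71 in the 0 ppm group and 1.79 to 2.96 in the 50 ppm group. As the groups did not overlap in it, covariate and dose cannot be told apart in that fit, and its values are a description. With the covariate, the median log2 fold change of the members was 0.27, against 0.42 without it. The log2 fold change was then 0.45 (SE 0.164) for Aqp4, 0.88 (SE 0.314) for Gfap and 0.41 (SE 0.141) for Gja1. It was 0.64 (SE 0.183) for Gjb6, 0.25 (SE 0.102) for Apoe and 0.28 (SE 0.271) for S100b. It was 0.24 (SE 0.112) for Slc1a2 and 0.18 (SE 0.0989) for Slc1a3, both higher than without the covariate. For Aldoc it was 0.13 (SE 0.114) and for Aldh1l1 -0.10 (SE 0.114). No member had an adjusted p under 0.05 in edgeR (quasi-likelihood test, Benjamini-Hochberg). With replicates 1 and 2 of the 0 ppm group left out, a choice made after seeing the data, the median log2 fold change was 0.32, with lower values for Aqp4 (0.46), S100b (0.40) and Aldoc (0.16) and higher ones for Gfap (0.83) and Gjb6 (0.63) than with all libraries.

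**Figure D5:**
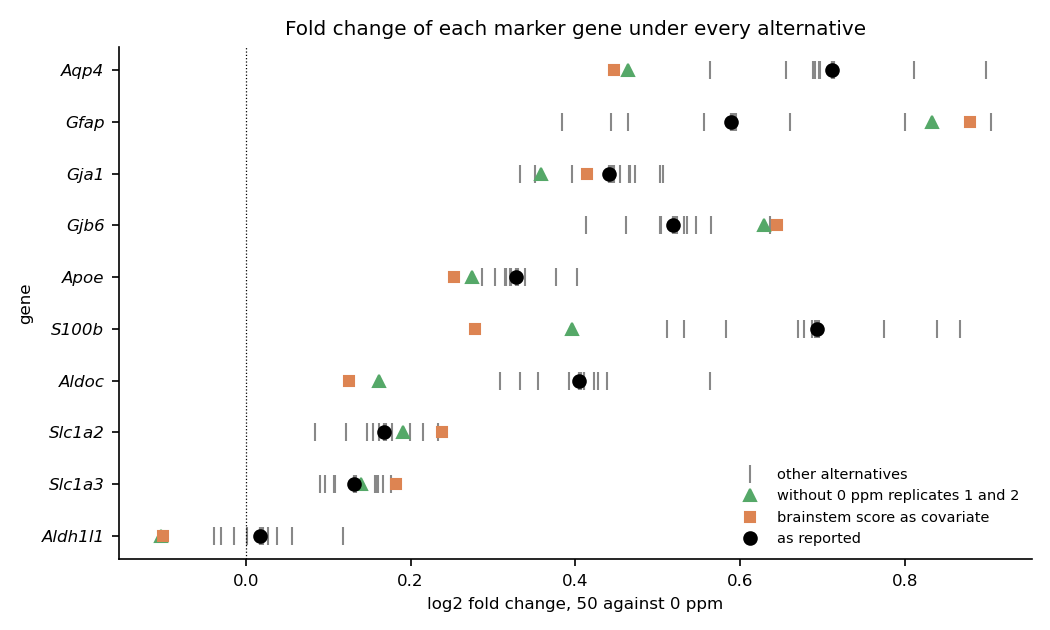
The log2 fold change (x axis) of each marker gene is plotted as reported (black) and under each alternative way of processing or choosing libraries. With the brainstem score, which did not overlap between the doses, as a covariate, Aqp4, Gja1, Apoe, S100b, Aldoc and Aldh1l1 lie lower than as reported. Gfap, Gjb6, Slc1a2 and Slc1a3 then lie higher, and only Aldh1l1 has values on both sides of 0.

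Some marker genes of other cells also differed between the groups at an unadjusted p under 0.05. By that measure 2.31% of all genes tested were higher and 1.44% lower. Of 11 oligodendrocyte genes 8 were higher at an unadjusted p under 0.05, with a median log2 fold change of 0.61, 1 of them (Bcas1) at an adjusted p of 0.0375 in edgeR (quasi-likelihood test, Benjamini-Hochberg). Their summed level was 136 to 172 CPM in the 0 ppm group and 173 to 256 CPM in the 50 ppm group, and none was at 0 in all libraries. Of 7 genes of oligodendrocyte progenitors 0 had such a p. Of 10 microglia genes 3 were higher (summed level 124 to 151 and 139 to 173 CPM), of 10 endothelium and pericyte genes 2 were higher (395 to 470 and 427 to 523 CPM), and of 8 meningeal genes 2 were higher (559 to 658 and 699.8 to 858 CPM). Of 15 neuronal genes 2 were higher, the neurofilaments Nefm and Nefl, at summed levels of 8094 to 9174 and 8779 to 9213 CPM. Tubb3 was listed at 0 in all libraries, from which no absence of its RNA is read. Its exons lie wholly inside the span of another gene on the same strand, though no exon of another gene overlaps them. Why Tubb3 was listed at 0 was not tested. Of 10 Bergmann glia and cerebellum genes 2 were higher (274 to 489 and 390 to 422 CPM). Among the 8 choroid plexus, 5 ependyma and 6 blood genes, 0 passed the unadjusted threshold. Whether such cells or regions were present in different amounts was not measured, and their part in the values of the members was not tested. The covariate fit cannot separate them from dose, and replicates 1 and 2 of the 0 ppm group were left out after seeing the data.

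Reads aligned to the C genome instead of the B genome could be read for 6 members, Aqp4, Gja1, Gjb6, Apoe, S100b and Aldoc. Their C genome identifiers came from a shortened list that the study ordered by its own test, so these 6 are a selected subset and not independent evidence. Their log2 fold changes there were 0.71 for Aqp4, 0.45 for Gja1, 0.53 for Gjb6, 0.34 for Apoe, 0.69 for S100b and 0.41 for Aldoc. The adjusted p-values were 0.266 to 0.999 in edgeR (quasi-likelihood test, Benjamini-Hochberg). Reads counted on the C genome were 98.3% to 99.9% of those counted on the B genome for these genes, against 88.8% over all genes. The other 4 members were not read on the C genome.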

How the data were processed

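RNA-seq counts of 8 whole brains, from newborn B × C females, were grouped by the dose in the sample labels (0 or 50 ppm, 4 each). The authors trimmed the reads, aligned them with STAR to the B genome (GRCm38) and to the C genome and deposited raw read counts per gene from HTSeq, not normalized. Tool versions and the strand setting are not given in the sources used here, and the submitters' processing notes also name FastQC and DESeq2. A gene with 0 counts in over 2/3 of all libraries was not tested. Counts were scaled with TMM and tested on treatment with edgeR 4.0.16 (glmQLFit, glmQLFTest) in R 4.3.3, with Benjamini-Hochberg adjustment over all 23113 genes and a threshold of 0.05. A standard error is the absolute log2 fold change divided by the root of the F statistic. The fit was tested on data drawn with known changes. Single genes were compared with a two-sided exact permutation test over 70 labellings (SciPy 1.17.1). CPM were computed with TMM factors, and log2 CPM used a prior count of 2. Exon lengths and positions came from GENCODE M21 (GRCm38), promoters from RefSeq. Symbols matched 49326 of 49585 identifiers of the B table and 120 of 37192 of the C table.

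The members, gene lists and motifs were chosen with earlier results of these data known, and lists are described by counts and medians. Named were all members, from each list up to 6 genes of smallest unadjusted p under 0.05 and its most abundant gene, further genes of a list where it is described, and the 5 genes most like the members by either correlation. Alternatives were DESeq2 1.42.0, its size factors, 2 other filters, a robust fit, limma-voom 3.58.1 with quality weights, the brainstem covariate, the C genome table and leaving out each library in turn. Pups came from separate litters, so the spread is that between animals and libraries. Some single genes are not reported here.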

Additional observations from a re-analysis of the deposited data

How the results depend on the processing

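No paired analysis was possible because the labels carry no replicate numbers and each pup came from a different litter. The number of genes with an adjusted p under 0.05 was 4 as reported, 18 with DESeq2, 52 with no filter on low counts (0.192% of 27077 genes), 2 with at least 10 counts in 4 libraries, 1 with limma-voom and 2 on the C genome. It ranged from 2 to 20 with single libraries left out, with 20 without replicate 3 of the 0 ppm group and 8 without replicate 3 of the 50 ppm group, and was 7 without replicates 1 and 2 of the 0 ppm group, added after seeing the data. The number of members past that threshold was 0 as reported, 3 with no filter (Aqp4, Gja1 and Apoe, adjusted p 3.62e-04, 0.0157 and 0.0439), and 0 to 2 with single libraries left out. The 2 were Aqp4 and Aldoc, without replicate 3 of the 0 ppm group. The cause was not tested. On the C genome 6 of the 6 members that could be read had a positive log2 fold change. Their identifiers came from a list that the study ordered by its own test, so this count is not independent evidence. The members not read there include Slc1a2, Slc1a3 and Aldh1l1, whose log2 fold changes as reported were the smallest. The log2 fold change of Aldh1l1 turned from 0.02 to -0.10 with the brainstem covariate, to -0.10 without replicates 1 and 2 of the 0 ppm group, and ranged from -0.038 to 0.12 with single libraries left out, at -0.014 and -0.030 without replicate 1 or 2 of the 0 ppm group and -0.038 without replicate 2 of the 50 ppm group. The other 9 members kept a positive log2 fold change in each of their 16 or 17 alternatives, and 6 to 9 members had an unadjusted p under 0.05. The median of the members lay between 0.27 and 0.49, the upper value being that of the 6 members read on the C genome. With 4 libraries a group, a member's difference of the size of its SE could not be told from none.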
